A study of Saccharomyces cerevisiae with 18 samples.

Results

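RNA of top2-1 yeast after 60 min at 37 °C was set against RNA of wild-type yeast treated in the same way, feature by feature, with the HMG-box protein Hmo1 present in both strains. The features described are the 5855 of 7126 in the RNA files whose estimated count averaged at least 20 over these 2 libraries. Of them, 5490 were nuclear coding genes, 290 had no entry in the reference gene table, 28 were frames of Ty retrotransposons, 28 were other RNAs or pseudogenes, 16 were small nucleolar RNAs (snoRNAs) and 3 lay on the mitochondrial genome. The feature just inside the minimum was MIN6 (mean 20 counts) and the one just outside was YLR162W (mean 19.7 counts). Because the minimum is on the mean, 14 members had fewer than 20 counts in top2-1 and 52 had fewer than 20 in wild type, so low members could pass through 1 library alone.

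The series is a study of budding yeast (Saccharomyces cerevisiae) in which RNA was sequenced from wild type, top2-1, hmo1Δ and hmo1Δ;top2-1 strains, wild type also at 28 °C, and in which Top2 contacts, Hmo1 and nucleosomes were mapped on chromatin. Cultures of the 4 strains compared at 37 °C grew at 28 °C in log phase and were then held at 37 °C for 60 min, the temperature at which the top2-1 product loses its activity. Each strain gave 1 library, so no replicate error exists for any value here, no p-value is given, and intervals cover counting error only, which they understate because PCR copies of a molecule count as separate reads. The labels name no strain background and no clone number.

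Top2 is the type II topoisomerase of yeast: it cuts both strands of a DNA duplex, passes another duplex through the gap and reseals it. It removes positive and negative supercoils, which form ahead of and behind a moving RNA polymerase, and it is the only yeast enzyme that can unlink replicated chromosomes, so cells without it cannot finish mitosis. Top1 relaxes supercoils too, and the labels give no change of it in either strain. top2-1 is a temperature-sensitive allele and not a deletion, so the gene is still transcribed and its RNA is no check of the label.

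TOP2 (chromosome XIV, 457704 to 461990 in build R64) had 138 CPM (counts scaled to the library total) in top2-1 and 158 CPM in wild type, a log2 ratio of -0.19 with a 95% counting interval of -0.33 to -0.06. TOP1, the type I enzyme, had 186 CPM in top2-1 and 154 in wild type (0.27, 0.14 to 0.39). TOP3, a topoisomerase that acts with the helicase Sgs1, had 35.5 CPM in top2-1 and 46.8 in wild type (-0.40, -0.66 to -0.14). HMO1 was at 197 CPM in top2-1 and 206 in wild type, while both hmo1Δ libraries held 0 HMO1 counts. Both top2-1 and wild type expressed the a-cell genes, at a sum of 284 CPM in top2-1 and 293 CPM in wild type over 5 markers, above the sums of 54.4 CPM in top2-1 and 42.6 CPM in wild type over 4 alpha-cell markers, none of them at 0. None of 9 auxotrophic marker genes differed by 1.5-fold between them. The hmo1Δ strains did differ in their markers, with 0 counts of TRP1 in both and 3694 counts of ADE2 in hmo1Δ;top2-1 and 2276 in hmo1Δ, against 350 in top2-1 and 312 in wild type.

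The top2-1 library held 5591118 estimated counts and the wild-type library 4752471, with mean fragment lengths of 135.0 bp in top2-1 and 136.7 bp in wild type. Nuclear coding genes took 97.8% of the counts in top2-1 and 97.9% in wild type. The rank correlation of the counts of the members was 0.980, given as a description across features, which are not independent replicates. In this comparison and in the others, a CPM value is a count divided by a library total scaled with TMM factors, and a log2 ratio is top2-1 over wild type with a prior count of 2. In bulk RNA, fewer cells that make a transcript and less of it per cell cannot be told apart.

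Most RNA levels differed little after 60 min. The median log2 ratio of the members was 0.0043, the middle 50% lay between -0.18 and 0.20, and 90% between -0.49 and 0.58. At least 2-fold higher in top2-1 were 60 features (1.02% of 5855), and at least 2-fold lower were 34 (0.581%). With a limit of 1.5-fold 293 (5.00%) were higher and 190 (3.25%) lower, and among nuclear coding members 229 (4.17%) were higher and 148 (2.70%) lower, 377 together (6.87%). Counting intervals that left out 0 were far more common, at 1339 features above 0 and 1338 below 0 (22.9% each). For the same features, hmo1Δ;top2-1 over hmo1Δ gave 71 higher (1.21%) and 129 lower (2.20%) at 2-fold, and 380 higher (6.49%) and 444 lower (7.58%) at 1.5-fold. That pair of libraries shares no library with top2-1 and wild type, so its values are set beside those of the single mutant where they bear on a result. The difference between the pairs was not tested.

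**Figure D1:**
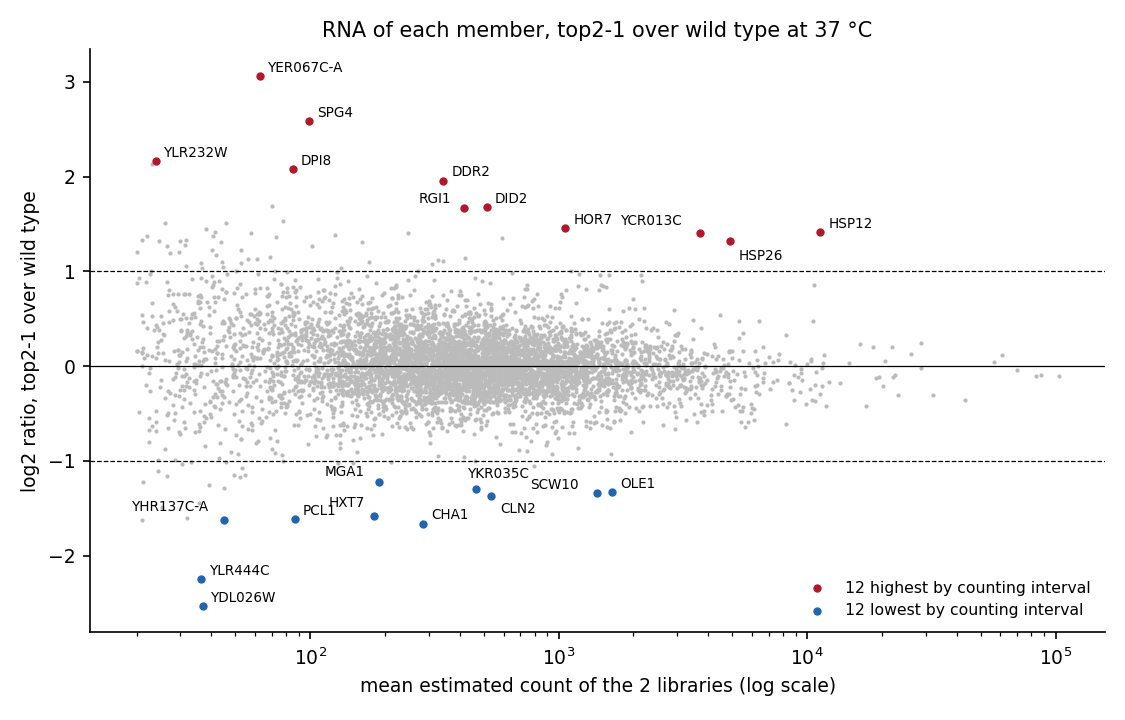
Log2 ratio of top2-1 over wild type (vertical axis) against the mean estimated count of both libraries (horizontal axis, log scale), 1 point per member; dashed lines mark 2-fold. The ratios of most members lie near 0, and the 12 highest and 12 lowest by counting interval are named, except YDR413C and YBL006W-A, which had 0 counts in 1 library and are not drawn.

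Features were named by the bound of their counting interval nearest to 0. Of the 12 highest in top2-1, 6 are on the general stress list, which holds 57 of all 5855 members. That list was chosen with earlier results of these data known. By that bound YDR413C and YER067C-A came first and SPG4 after them. SPG4, needed for survival of resting cells at high temperature, had 175 counts in top2-1 and 23.0 in wild type, or 25.9 CPM in top2-1 and 4.11 in wild type, a log2 ratio of 2.59 (2.03 to 3.35). DDR2 (chromosome XV, 231570 to 231755), induced by many stresses, had 84.0 CPM in top2-1 and 21.4 in wild type (1.96, 1.69 to 2.27). HSP12 (chromosome VI, 107256 to 107585), a small protein that protects membranes, had 2547 CPM in top2-1 and 956 in wild type (1.41, 1.37 to 1.46). All of these counting intervals lie beyond 2-fold. HSP26 (chromosome II, 382030 to 382674), a small heat shock chaperone, had 1090.3 CPM in top2-1 and 436 in wild type (1.32). HOR7, a gene of the response to high osmolarity, had 241 CPM in top2-1 and 87.9 in wild type (1.45). Per length, HSP12 was the most abundant of these RNAs, at 11405 deposited TPM (transcript abundance per length) in top2-1 and 4413 TPM in wild type, ahead of HOR7 at 4193 TPM in top2-1 and 1610.3 TPM in wild type.

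Several others among the 12 highest belong to no stress list or cannot be read as a single gene. DPI8, a gene without a role given here, had 21.2 CPM in top2-1 and 4.82 in wild type (2.08, 1.54 to 2.79). YDR413C, which has no entry in the reference table, had 49.4 counts in top2-1 and 0 in wild type. That is 13.7-fold higher with wild type set to a floor of 3 counts, and the lower counting bound of its log2 ratio was 3.42. YCR013C, also without an entry, had 837 CPM in top2-1 and 316 in wild type (1.40), and YLR232W had 41.4 counts in top2-1 and 6.57 in wild type (2.16, 1.19 to 3.84). DID2, a sorting factor of the endosome, had 121 CPM in top2-1 and 37.6 in wild type (1.68). YKR035C, whose systematic name shares the number of DID2 (YKR035W-A) and gives the other strand, was in turn among the lowest, at 45.5 CPM in top2-1 and 112 in wild type (-1.30). Summed, this pair had 166 CPM in top2-1 and 150 CPM in wild type, a log2 ratio of only 0.15 (0.02 to 0.29). RGI1, a gene of respiratory growth, and YER067C-A share a number in the same way. RGI1 had 98.2 CPM in top2-1 and 30.6 in wild type (1.67), YER067C-A had 17.1 CPM in top2-1 and 1.82 in wild type (3.07), and their sum stayed high at 1.83 (1.60 to 2.07). Both pairs were chosen after their values were seen. The libraries are strand-specific per the labels, but nothing used here states whether strand was used in counting, so reads of such partners cannot be told apart.

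In all, 34 of the 5490 nuclear coding members (0.619%) were at least 2-fold higher, and 18 of the 34 averaged fewer than 100 counts. SRX1, the sulfiredoxin that repairs oxidised peroxiredoxins, had 113 counts in top2-1 and 28.0 in wild type (1.69, 1.14 to 2.40). NQM1, a transaldolase, had 133 CPM in top2-1 and 51.9 in wild type (1.35). SUE1, which acts in the breakdown of unstable cytochrome c, was at 56.2 CPM in top2-1 and 21.1 in wild type (1.40), and STF1, a partner of the ATP synthase inhibitor, at 73.7 CPM in top2-1 and 34.1 in wild type (1.11). Genes outside metabolism were also there. BDF2, a bromodomain protein, had 236 CPM in top2-1 and 118 in wild type (1.00), RPC10, a subunit shared by the nuclear RNA polymerases, had 28.2 CPM in top2-1 and 13.6 in wild type (1.04), and BMT6, an rRNA methyltransferase, had 56.9 CPM in top2-1 and 28.2 in wild type (1.01). SPR28, GAS4, MUM3 and MEI4, genes of meiosis and spore formation, were at 1.41, 1.14, 1.23 and 1.05, all on fewer than 100 counts per library. Of the 34, 16 were shorter than 500 bp, against 651 of all 5490. In hmo1Δ;top2-1 over hmo1Δ, 14 of the 34 lay above 0 and 20 below, beside 2710 above and 2778 below among all 5490 coding members.

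The lowest members in top2-1 relative to wild type included genes of G1, the cell wall, lipid synthesis and nutrient uptake. CLN2 (chromosome XVI, 64977 to 66614), a G1 cyclin that drives the start of the cell cycle, had 50.4 CPM in top2-1 and 131 in wild type, a log2 ratio of -1.37 (-1.57 to -1.19). PCL1, a G1 cyclin of the kinase Pho85, had 7.12 CPM in top2-1 and 22.3 in wild type (-1.61, -2.16 to -1.16). SCW10, a glucanase of the cell wall, had 137 CPM in top2-1 and 345 in wild type (-1.34, -1.45 to -1.22). All these intervals lie beyond 2-fold. OLE1 (chromosome VII, 398628 to 400160), the only fatty acid desaturase of yeast, had 158 CPM in top2-1 and 398 in wild type (-1.33, -1.44 to -1.23). CHA1, a deaminase that lets cells use serine and threonine, had 23.1 CPM in top2-1 and 73.7 in wild type (-1.66, -1.95 to -1.40). HXT7, a high-affinity glucose transporter, had 15.3 CPM in top2-1 and 46.1 in wild type (-1.58), and its near-identical copy HXT6 had 1 count in top2-1 and 0 in wild type, so reads cannot be split between them with certainty. MGA1, a protein of the heat shock factor family, had 19.0 CPM in top2-1 and 44.6 in wild type (-1.22, -1.55 to -0.92).

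The other 4 of the 12 lowest, like YKR035C, were features without an entry in the reference table. YBL006W-A had 0 counts in top2-1 and 44.2 in wild type. That is 17.7-fold lower with top2-1 set to the floor of 3 counts, and the counting bound of its log2 ratio nearest to 0 was -3.79. YDL026W had 11.6 counts in top2-1 and 62.4 in wild type (-2.53, -3.75 to -1.78), YLR444C had 13.7 counts in top2-1 and 59.3 in wild type (-2.25), and YHR137C-A had 24.5 counts in top2-1 and 65.5 in wild type (-1.62). Among nuclear coding members 18 (0.328%) were at least 2-fold lower, 9 of them with a mean under 100 counts.

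**Figure D2:**
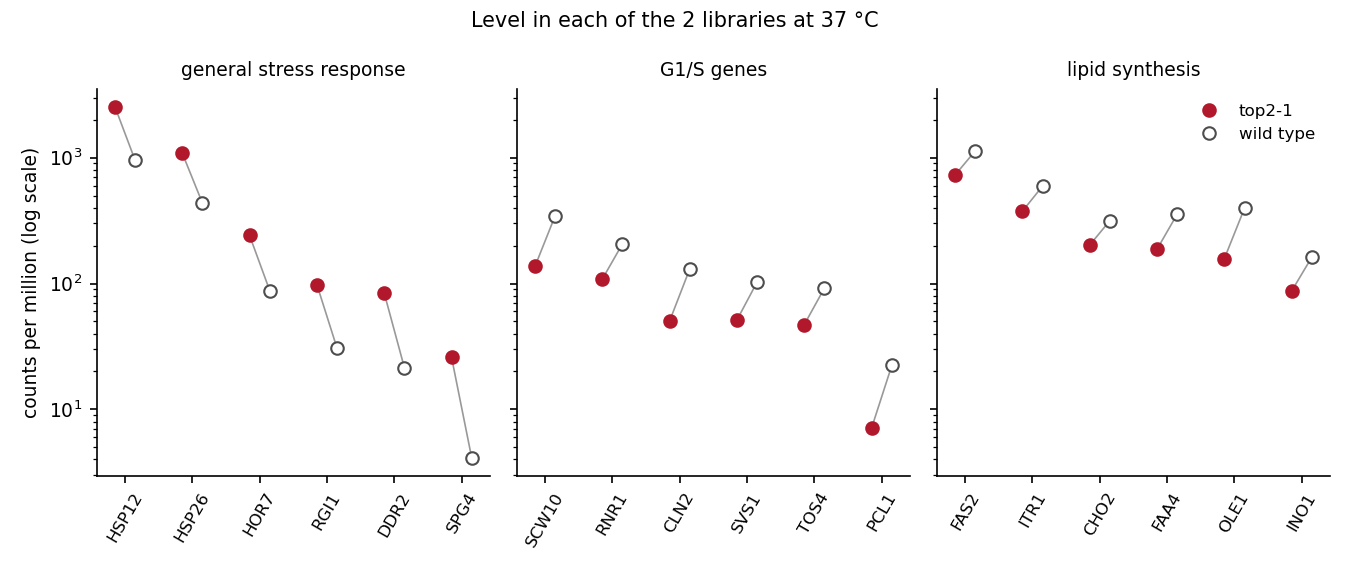
CPM (vertical axis, log scale) of 18 genes in top2-1 (filled, left of each gene) and wild type (open, right), 1 library each, joined by a line. All 6 genes of the general stress response lie higher in top2-1, and all 6 of G1/S and all 6 of lipid synthesis lie lower; these are genes past 1.5-fold that the text names.

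Read as gene lists, the general stress response had the highest median among lists of coding genes. This set is driven by the factors Msn2 and Msn4 when growth conditions turn poor. Its 57 members had a median log2 ratio of 0.36 (0.22 to 0.54, the spread over members, which are regulated together), against 0.0043 over all members. In top2-1, 17 of them were at least 1.5-fold higher and none lower, beside 4.17% and 2.70% of coding members, and 45 lay above 0. TFS1, an inhibitor of a vacuolar protease, had 305 CPM in top2-1 and 157 in wild type (0.96). SOL4 and GND2, enzymes of the pentose phosphate pathway, were at 0.91 and 0.75, PGM2, which feeds trehalose and glycogen synthesis, at 0.85, and ALD4, the mitochondrial aldehyde dehydrogenase, at 0.89. CTT1, the cytosolic catalase and a classic member of the set, had 45.2 CPM in top2-1 and 40.9 in wild type (0.14, -0.11 to 0.40), an interval that includes 0. Summed over the list of 60 genes, the level was 18389 CPM in top2-1 and 13226 CPM in wild type. In the other pair the sums were 25553 CPM in hmo1Δ;top2-1 and 51504 CPM in hmo1Δ, and the median log2 ratio of that pair was -0.98 (-1.22 to -0.72), with none of 57 at least 1.5-fold higher and 41 lower.

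Related lists lay closer to 0. Oxidative stress enzymes had a median of 0.15 (0.06 to 0.23), with 3 of 37 at least 1.5-fold higher and none lower, beside 4.17% and 2.70% of coding members. PRX1, the mitochondrial peroxiredoxin, had 391 CPM in top2-1 and 239 in wild type (0.71). TSA2, a cytosolic peroxiredoxin, had 16.2 CPM in top2-1 and 9.29 in wild type (0.78). SOD1, the cytosolic superoxide dismutase, had 845 CPM in top2-1 and 582 in wild type (0.54). GRX2, a glutaredoxin, had 90.5 CPM in top2-1 and 62.3 in wild type (0.54). Heat shock chaperones lay on the other side, with a median of -0.12 (-0.21 to -0.03), 3 of 44 at least 1.5-fold higher and 3 lower, beside 4.17% and 2.70% of coding members. The 3 higher members were HSP12, HSP26 and HSP31, of which HSP12 and HSP26 are also on the stress list. The 3 lower were Hsp70 proteins: SSC1 of mitochondria had 1077 CPM in top2-1 and 1643 in wild type (-0.61), and the ribosome-bound SSB1 and SSB2, a near-identical pair that may share reads, were both at -0.59. HSP104, the disaggregase, had 1884 CPM in top2-1 and 2114 in wild type (-0.17). With cells of both strains at 37 °C, the summed level of chaperone RNA was 45259 CPM in top2-1 and 49558 CPM in wild type over 46 genes.

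Proteasome subunits differed by little but nearly all in one direction. Their median was 0.20 (0.17 to 0.23), and 36 of 38 lay above 0. The counting intervals of 31 left out 0 on that side and of 1 on the other, beside 22.9% of all members on each side. Counting intervals narrow with depth, and the list's median of mean counts was 1510, against 407 over all members, so these shares are not like for like. Only 1 passed 1.5-fold, beside 6.87% of coding members. PUP2, an alpha subunit of the core, had 314 CPM in top2-1 and 228 in wild type (0.46, 0.36 to 0.57). RPT2, an ATPase of the regulatory particle, had 437 CPM in top2-1 and 331 in wild type (0.40). SEM1, a small lid subunit, had 58.4 CPM in top2-1 and 37.3 in wild type (0.64). RPN4, the transcription factor of proteasome genes and also on the list, had 161 CPM in top2-1 and 189 in wild type (-0.23, -0.35 to -0.11), lower in top2-1. The list's median in hmo1Δ;top2-1 over hmo1Δ was -0.02 (-0.13 to 0.04). Respiration and the tricarboxylic acid cycle had a median of 0.09 (-0.06 to 0.19), an interval that includes 0, with 5 of 50 at least 1.5-fold higher and none lower, beside 4.17% and 2.70% of coding members. CIT1, the mitochondrial citrate synthase, led with 446 CPM in top2-1 and 229 in wild type (0.96, 0.87 to 1.06). ATP15 and INH1, a subunit and the inhibitor of the ATP synthase, were at 0.84 and 0.65, and IDH2, of isocitrate dehydrogenase, at 0.60. Of 24 genes of glycolysis and fermentation, GLK1, the glucokinase, was higher, at 2164 CPM in top2-1 and 1194 in wild type (0.86), and PDC5, a pyruvate decarboxylase, lower (-0.62), with a list median of 0.06.

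Genes of the G1/S transition had the lowest median of any list. The factors SBF and MBF turn them on late in G1 for budding and DNA replication. The 51 members had a median of -0.30 (-0.41 to -0.20). None was at least 1.5-fold higher in top2-1 and 13 were lower, beside 4.17% and 2.70% of coding members. Below 0 lay 45 of 51. The counting intervals of 31 left out 0 on that side and of 2 on the other, beside 22.9% of all members on each side. RNR1, the large subunit of ribonucleotide reductase, had 108 CPM in top2-1 and 207 in wild type (-0.93, -1.07 to -0.80). TOS4, a factor bound to G1/S and stress promoters, had 47.1 CPM in top2-1 and 92.1 in wild type (-0.96). SVS1, a cell surface protein, had 51.3 CPM in top2-1 and 103 in wild type. GIN4, a kinase of the bud neck, was at -0.79, SWE1, the kinase that holds back mitosis, at -0.59, and POL12, a subunit of DNA polymerase alpha, at -0.70. POL1, the catalytic subunit of the same polymerase, was at -0.41 (-0.60 to -0.22), and CLN1, the partner of CLN2, at -0.57 on 98.0 counts in top2-1 and 121 in wild type. CLN3, the cyclin that acts before them and a gene of the M/G1 list, had 50.7 CPM in top2-1 and 57.5 in wild type (-0.18, -0.41 to 0.04). In hmo1Δ;top2-1 over hmo1Δ the median of the G1/S list was 0.11 (-0.02 to 0.35), with PCL1 at 0.65 and CLN2 at 0.11.

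Other phases showed other values. Genes of M/G1, expressed as daughter cells separate, had a median of 0.09 (-0.07 to 0.39), with 6 of 30 at least 1.5-fold higher and none lower. That is beside 4.17% of coding members higher and 2.70% lower, and 13 of the 30 lay below 0. The 6 were PIR3 and 5 genes of daughter cell separation, while others of that kind, such as CTS1 and SUN4, did not pass 1.5-fold. DSE2, a secreted glucanase, had 65.7 CPM in top2-1 and 30.9 in wild type (1.08, 0.83 to 1.35). DSE1, a protein of the daughter cell, had 45.1 CPM in top2-1 and 26.6 in wild type (0.75), and SCW11, DSE4 and EGT2, which act on the septum, were at 0.75, 0.63 and 0.64. PIR3, a wall protein, had 259 CPM in top2-1 and 147 in wild type (0.81). SIC1, the inhibitor of S-phase kinase made at the end of mitosis, had 94.1 CPM in top2-1 and 78.0 in wild type (0.27). None of 27 G2/M genes passed 1.5-fold in either direction, beside 6.87% of coding members, a share of which 27 genes would hold few. Their median was -0.04 (-0.26 to 0.13). ASE1, which bundles microtubules of the spindle, is not on that list and had 23.4 CPM in top2-1 and 47.6 in wild type (-1.01). Genes of DNA damage and replication stress had a median of -0.07 (-0.19 to 0.10). RNR3, the damage-induced reductase subunit, was lower (22.5 CPM in top2-1 and 35.9 in wild type; -0.67, -0.99 to -0.36), and RAD17, a checkpoint clamp subunit, higher (42.3 CPM in top2-1 and 25.6 in wild type; 0.72).

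The median of lipid synthesis lay below 0 as well. Of 37 genes of fatty acid and phospholipid synthesis, 8 were at least 1.5-fold lower and none higher, beside 2.70% and 4.17% of coding members. The list had a median of -0.25 (-0.43 to -0.06), with 12 members above 0. After OLE1, FAA4, an acyl-CoA synthetase, had 187 CPM in top2-1 and 356 in wild type (-0.93). INO1, the first enzyme of inositol synthesis, had 87.3 CPM in top2-1 and 162 in wild type (-0.89). FAS2, of the fatty acid synthase, had 728 CPM in top2-1 and 1132 in wild type (-0.64). ITR1, an inositol transporter, had 375 CPM in top2-1 and 595 in wild type (-0.67). CHO2, which makes phosphatidylcholine from phosphatidylethanolamine, had 202 CPM in top2-1 and 316 in wild type (-0.65). The list's summed level was 7536 CPM in top2-1 and 9677 CPM in wild type. Its median in hmo1Δ;top2-1 over hmo1Δ was -0.26 (-0.42 to -0.14). Ergosterol synthesis had a median of -0.07 (-0.29 to 0.01), with HMG1, the rate-limiting reductase, at -0.59 as its 1 member past 1.5-fold.

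Amino acid synthesis had a median of -0.14 (-0.21 to -0.07), 4 of 67 at least 1.5-fold lower and 2 higher, beside 2.70% and 4.17% of coding members, so neither count stands far from that share. The 4 lower members act in leucine, lysine and branched-chain synthesis. LEU1 had 248 CPM in top2-1 and 402 in wild type (-0.70). LYS4 had 124 CPM in top2-1 and 199.6 in wild type (-0.69), ILV3 was at -0.59 and BAT1 at -0.59. The 2 higher were SER3, of serine synthesis (0.66), and SHM2, serine hydroxymethyltransferase (0.60). GCN4, the activator of these genes, had 845 CPM in top2-1 and 1157 in wild type (-0.45). Sulfur assimilation and the methionine cycle had a median of -0.20 (-0.35 to -0.001), led by MET6, the methionine synthase, with 69.1 CPM in top2-1 and 116 in wild type (-0.75). Cell wall genes had a median of -0.13 (-0.27 to -0.03). SCW10, ECM33, a wall protein, and TIR2, a wall mannoprotein, were lower (ECM33 -0.59, TIR2 -0.88), and PIR3 and CWP1, also wall proteins, higher (CWP1 0.73). Nutrient lists lay nearer to 0: the phosphate regulon had a median of -0.08 (-0.13 to 0.07), hexose transporters 0.08 (-0.58 to 0.48), galactose genes 0.05 (-0.17 to 0.48) and the iron regulon 0.02 (-0.06 to 0.16). Genes of pheromone response and mating were at -0.06 (-0.11 to 0.07), and mitochondrial ribosomal proteins at -0.02 (-0.07 to 0.06). All these intervals include 0.

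**Figure D3:**
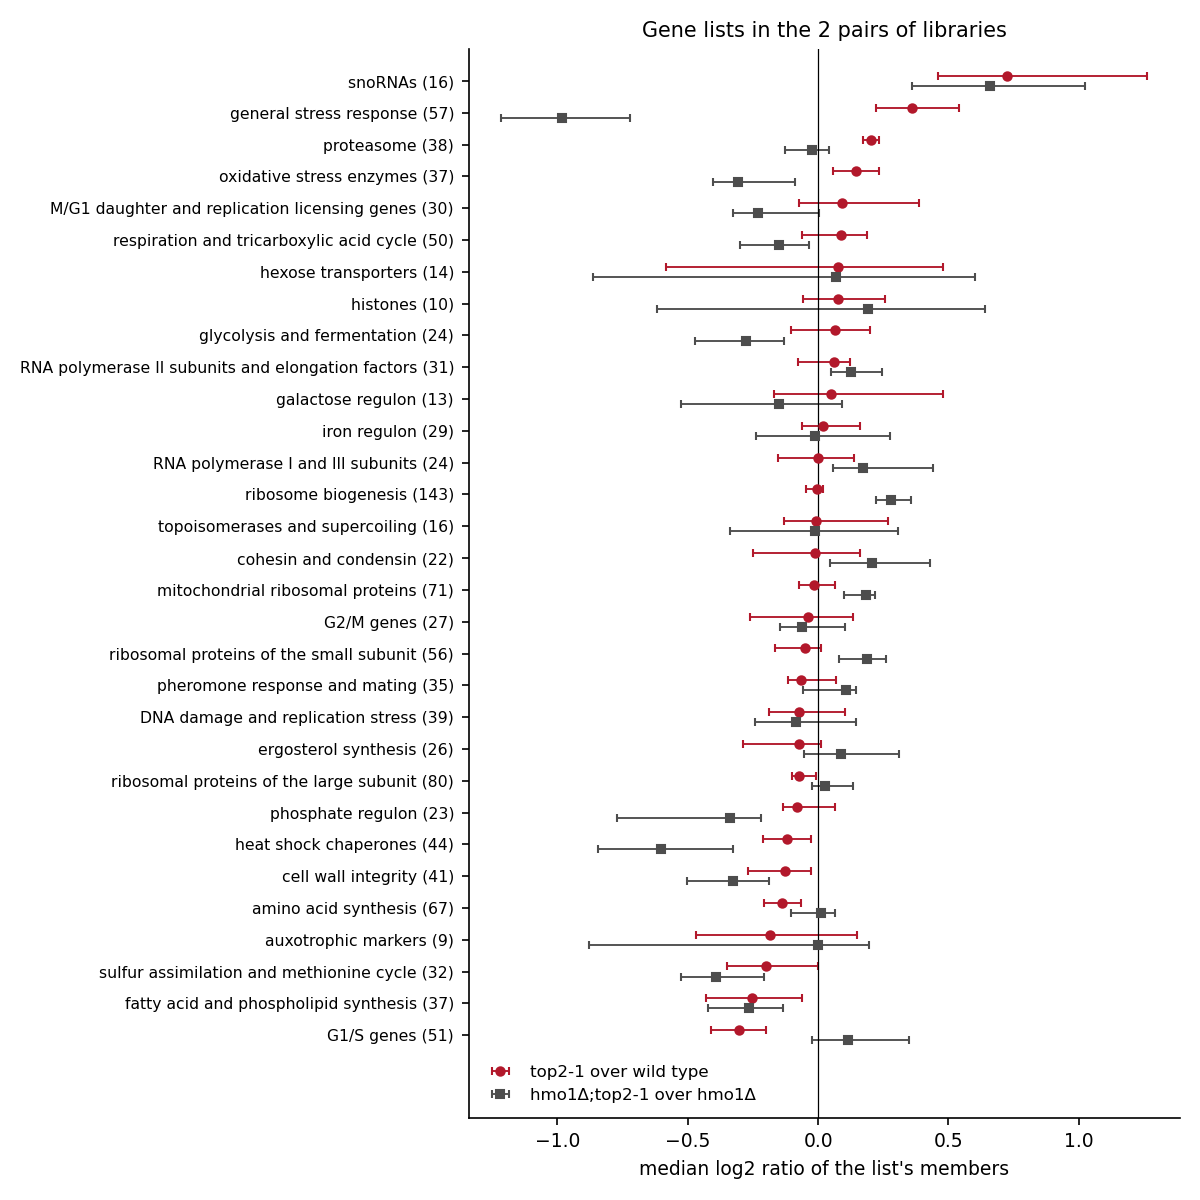
Median log2 ratio (horizontal axis) of 31 gene lists in top2-1 over wild type (circles, above) and in hmo1Δ;top2-1 over hmo1Δ (squares, below); bars are 95% intervals of the median over members, whose number is in parentheses. The general stress response lies at 0.36 in one pair and -0.98 in the other, G1/S genes lie at -0.30 and 0.11, and snoRNAs lie high in both.

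The machinery of ribosomes, chromatin and transcription differed little. Ribosomal proteins of the large subunit had a median of -0.07 (-0.10 to -0.01) and those of the small subunit -0.05 (-0.16 to 0.01), with 2 of 80 and 0 of 56 members past 1.5-fold in either direction, beside 6.87% of coding members. The 80 include RPP1, taken in by its name, which is a subunit of RNase P and not a ribosomal protein. RPL3, of the large subunit, had 4641 CPM in top2-1 and 4712 in wild type (-0.02). The 2 members past the limit were RPL15B (0.64) and RPL43B (0.62), both higher, and both from pairs of near-identical genes between which reads may be split. Ribosome biogenesis, with 143 genes, had a median of -0.0047 (-0.04 to 0.02), and 1 of them passed 1.5-fold: DBP2, an RNA helicase, at 301 CPM in top2-1 and 166 in wild type (0.86, 0.75 to 0.97). The same list was, in hmo1Δ;top2-1 over hmo1Δ, at 0.28 (0.22 to 0.36). Subunits of RNA polymerases I and III were at -0.0018 and subunits and elongation factors of RNA polymerase II at 0.06, both with intervals that include 0. The median of the topoisomerase and supercoiling list was -0.01 (-0.13 to 0.27). HHO1, the linker histone and also a G1/S gene, had 49.4 CPM in top2-1 and 72.4 in wild type (-0.55, -0.77 to -0.34). WSS1, a protease that clears proteins from DNA, had 60.9 CPM in top2-1 and 39.8 in wild type (0.61).

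Cohesin and condensin, a list that also holds genes of the Smc5/6 complex, had a median of -0.01 (-0.25 to 0.16). YCG1, a condensin subunit, was at 43.6 CPM in top2-1 and 68.4 in wild type (-0.65). MCD1, the cleaved subunit of cohesin and itself a G1/S gene, was at 53.7 CPM in top2-1 and 79.0 in wild type (-0.56). None of 10 histone genes, among them the variant genes CSE4 and HTZ1, passed 1.5-fold. That is beside 6.87% of coding members, a share of which 10 genes would hold few or none. Their median was 0.08 (-0.06 to 0.26). HHF1, for histone H4, had 73.5 CPM in top2-1 and 53.4 in wild type (0.46). HTB2, for histone H2B, had 84.4 CPM in top2-1 and 99.5 in wild type (-0.24). Apart from CSE4 and HTZ1, these histone genes come in near-identical pairs, so the split between copies is uncertain. The signs of 6 of the 31 list medians, among them those of ribosome biogenesis, the topoisomerases, cohesin and condensin and RNA polymerases I and III, turned between alternative settings.

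snoRNAs, which guide modification and cutting of rRNA and keep no poly-A tail, were few in these libraries. They took 0.0267% of counts in top2-1 and 0.0142% in wild type, while the wild-type library at 28 °C held 5.89%. Over all 76 snoRNAs the sum was 221 CPM in top2-1 and 120 CPM in wild type, with 13 of them at 0 in top2-1 and 21 in wild type. The sum was 269 CPM in hmo1Δ;top2-1 and 170 CPM in hmo1Δ. Only 16 of 76 passed the minimum, some of them through the top2-1 library alone, so their values describe these and no others. Those 16 had a median of 0.73 (0.46 to 1.26), and all but SNR9 lay above 0. At least 1.5-fold higher were 10, and none was lower, beside 5.00% and 3.25% of all members. The median of their mean counts was only 36. Among coding members with mean counts of 20 to 287, 7.87% were at least 1.5-fold higher. With no filter on low counts the median was 0.53. SNR30, needed to cut the rRNA precursor, had 244 counts in top2-1 and 80.9 in wild type (1.31, 0.96 to 1.71). SNR42, a guide of pseudouridylation, had 18.1 CPM in top2-1 and 6.07 in wild type (1.54, 1.02 to 2.17). SNR8 had 62.0 counts in top2-1 and 19.0 in wild type (1.37). SNR70 had 40.0 counts in top2-1 and 13.0 in wild type (1.26). Both had fewer than 20 counts in wild type and passed through top2-1. The median of the 16 in hmo1Δ;top2-1 over hmo1Δ was 0.66 (0.36 to 1.02), on the same side.

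Other structural RNAs, chosen after their values were seen, were uneven. RPR1, the RNA of RNase P, had 191 counts in top2-1 and 60.0 in wild type (1.38, 0.98 to 1.85). NME1, of the related RNase MRP, had 48.0 counts in top2-1 and 15.0 in wild type (1.33, 0.55 to 2.35). SCR1, of the signal recognition particle, had 1022 counts in top2-1 and 555 in wild type (0.61). SNR19, the U1 RNA of the spliceosome, had 594 counts in top2-1 and 321 in wild type (0.62). LSR1, the U2 RNA, and TLC1, the telomerase RNA, had counting intervals that include 0, at 0.06 (-0.09 to 0.20) and -0.09 (-0.40 to 0.23). How far these levels follow the yield of poly-A selection was not tested.

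The log2 ratio was lower in longer genes, up to about 3000 bp. Lengths in the files are coding lengths, since all 5913 nuclear coding features have a length that is a multiple of 3. Coding members under 300 bp (158 genes) had a median of 0.30 (0.20 to 0.35). Of them 32 (20.3%) were at least 1.5-fold higher in top2-1 and 2 (1.27%) lower, beside 4.17% and 2.70% of coding members. The median of their mean counts was only 133, against 430 over all coding members. Among coding members with mean counts of 20 to 287, 7.87% were at least 1.5-fold higher and 3.88% lower. With the upper bound of each class left out, the median was 0.14 from 300 to 500 bp, 0.08 from 500 to 1000 bp, -0.0091 from 1000 to 1500 bp and -0.07 from 1500 to 2000 bp. Between 2000 and 6000 bp it was level, at -0.09 to -0.10 in 3 classes. The trend did not go on in the longest class: the 37 genes of 6000 bp or more had a median of 0.09 (0.0030 to 0.15), with 25 above 0 and 12 below. The rank correlation of ratio and length, a description across genes, was -0.30 over all 5490 coding members, -0.26 among those under 2000 bp and 0.12 among the 467 of 3000 bp or more.

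Set as quintiles (5 classes of near-equal size) of length, the shortest (90 to 663 bp, 1102 genes) had a median of 0.14 and the longest (2130 to 14733 bp, 1095 genes) -0.09. The shortest minus the longest gave 0.24 (0.20 to 0.28), small beside the 2-fold limit but made of shifts in most genes: 756 of 1102 short genes lay above 0 and 727 of 1095 long genes below. At least 1.5-fold higher were 99 of the shortest quintile (8.98%) and 10 of the longest (0.913%), beside 4.17% of coding members. At least 1.5-fold lower were 21 of the shortest (1.91%) and 43 of the longest (3.93%), beside 2.70% of coding members. Length and level go together, so the quintiles were also read within tertiles (3 such classes) of mean count. In the lowest tertile of count the shortest quintile was at 0.16 and the longest at -0.09, in the middle tertile at 0.19 and -0.09, and in the highest tertile at 0.05 and -0.10. Ribosomal protein genes under 500 bp were also read apart from the rest, at any level. The 84 of them had a median of -0.0039 (-0.07 to 0.06), and the other 567 coding members under 500 bp 0.19 (0.16 to 0.23).

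A gradient was also present between hmo1Δ;top2-1 and hmo1Δ, with medians of 0.22 under 300 bp, 0.13 from 300 to 500 bp and -0.08 from 2000 to 3000 bp, and a rank correlation of -0.19. Beyond that length the medians of the pairs lay apart. From 3000 to 4000 bp the median was -0.10 (-0.12 to -0.07) in top2-1 over wild type and -0.02 (-0.05 to 0.01) in hmo1Δ;top2-1 over hmo1Δ. From 4000 to 6000 bp it was -0.10 (-0.13 to -0.03) in top2-1 over wild type and -0.03 (-0.08 to 0.05) in the hmo1Δ pair, and at 6000 bp or more 0.02 (-0.05 to 0.11) in the hmo1Δ pair. The difference was not tested. Mean fragment length differed too: it was 121.4 bp in hmo1Δ;top2-1 and 131.0 bp in hmo1Δ, against 135.0 bp in top2-1 and 136.7 bp in wild type. The part of fragment length, RNA quality or size selection in the gradient was not tested. With the authors' TPM, which use an effective length for each library, the shortest minus the longest quintile was 0.22.

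**Figure D4:**
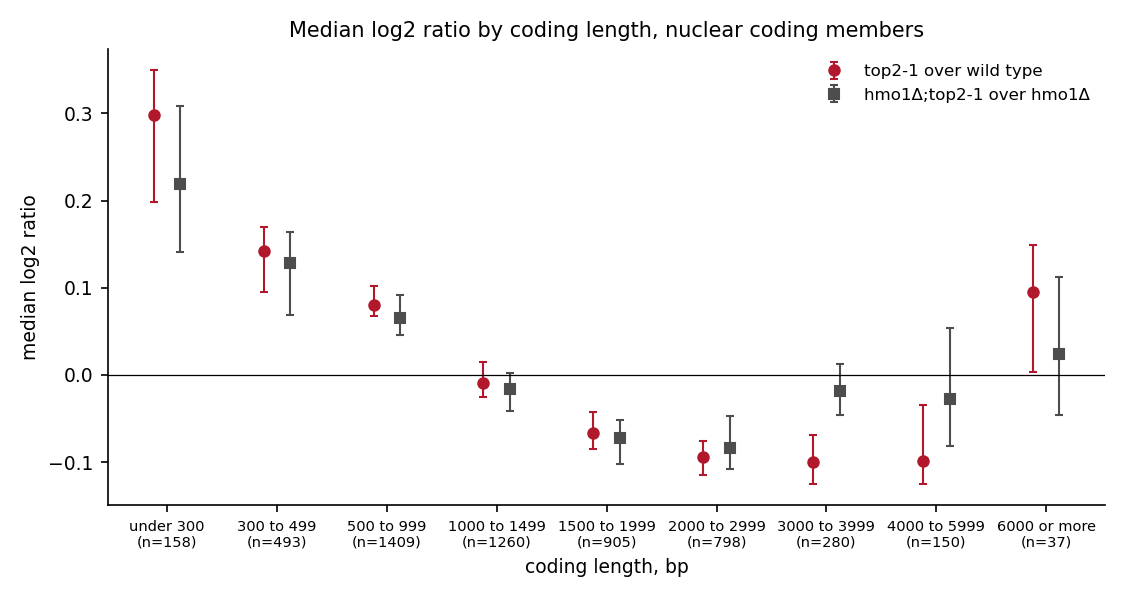
Median log2 ratio (vertical axis) of nuclear coding members in 9 classes of coding length (horizontal axis, bp, with the number of genes) in top2-1 over wild type (circles, left) and hmo1Δ;top2-1 over hmo1Δ (squares, right); bars are 95% intervals of the median. Both series fall from the shortest class to that of 2000 to 3000 bp, and the class of 6000 bp or more lies above 0 in both.

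None of the 37 members of 6000 bp or more passed 1.5-fold, beside 6.87% of coding members, a share of which 37 genes would hold few. REA1 (14733 bp), an ATPase that acts on the precursor of the large ribosomal subunit, had 289 CPM in top2-1 and 319 in wild type (-0.15, -0.24 to -0.05). DYN1 (12279 bp), the heavy chain of dynein, had 122 CPM in top2-1 and 113 in wild type (0.11, -0.04 to 0.26), and TRA1 (11235 bp), a subunit shared by the coactivators SAGA and NuA4, 168 CPM in top2-1 and 164 in wild type (0.03, -0.09 to 0.16). Both of these intervals include 0. TOM1, a ubiquitin ligase, was at 0.20 (0.09 to 0.31) and VPS13, a lipid transfer protein, at -0.04 (-0.16 to 0.07). IRA1 and IRA2, which both switch Ras off, were at 0.17 (0.04 to 0.30) and -0.11 (-0.25 to 0.02), and CSF1 at 0.15 (-0.02 to 0.32). Among these 8 genes 5 lay above 0 and 3 below, and REA1 alone of the 3 had an interval that left out 0.

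Contacts held by Top2 were mapped in the series by ChIA-PET, in which chromatin bound by tagged Top2 is ligated and paired-end tags show which segments lay together. The deposited list holds 1887 clusters, 1505 of them within a chromosome, and 1498 rest on only 2 tags, with at most 25. The median gap between joined anchors was 1030 bp, about the span of a gene. The map is from wild type at 28 °C; its label says log cells while its protocol describes release from G1 arrest. Coding members were sorted by it into 90 whose first and last base lay in joined anchors, 1949 with another anchor on the gene and 3451 with none.

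RNA ratios of genes with joined ends lay close to those of the rest. Their median was -0.02 (-0.07 to 0.04), that of genes with another anchor -0.02 (-0.04 to -0.01) and that of genes with none 0.02 (0.01 to 0.03). Joined minus none was -0.04, with an interval of -0.10 to 0.04 that includes 0. Of the 90, 2 were at least 1.5-fold higher and 1 lower, or 2.22% and 1.11%, against 4.84% and 2.72% of the genes with none. Median length was 1430 bp for joined genes, 1545 bp with another anchor and 1101 bp with none. Within the middle quintile of length, 1047 to 1482 bp, the 3 medians were -0.01, -0.03 and -0.01, and joined minus none was -0.0026. With 0, 1, 2 and 3 or more anchors on a gene the medians stepped down through 0.02, -0.0091, -0.04 and -0.05, while median length stepped up through 1101, 1269, 1818 and 2403 bp. In hmo1Δ;top2-1 over hmo1Δ joined genes had a median of -0.05 (-0.14 to 0.05).

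**Figure D5:**
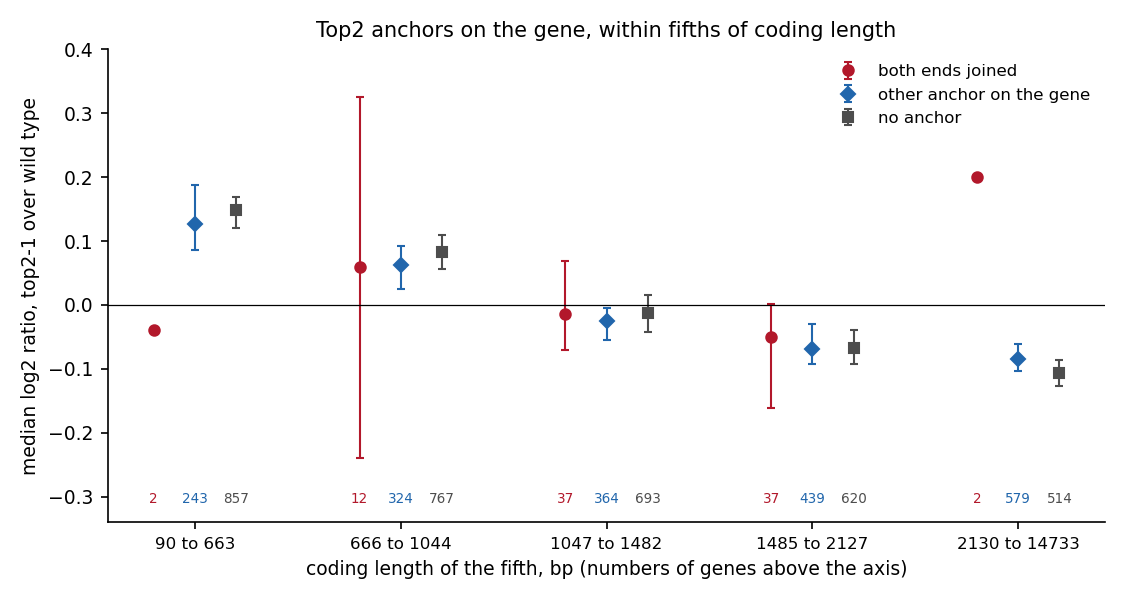
Median log2 ratio of top2-1 over wild type (vertical axis) in quintiles of coding length (horizontal axis, bp) for genes with both ends joined by Top2 clusters, with another anchor and with none; bars are 95% intervals of the median, numbers above the axis count genes, and the classes of 2 genes have no interval. Within each quintile the classes with more than 2 genes overlap, and all step down with length.

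The genes with the most tags that join their ends were mostly close to wild type. IME4 (8 tags), the RNA methyltransferase of meiosis, had 58.7 CPM in top2-1 and 61.2 in wild type (-0.06, -0.27 to 0.15), and SPT8 (7 tags), a SAGA subunit, 75.3 CPM in top2-1 and 76.6 in wild type (-0.02, -0.21 to 0.16). FAA3 (6 tags), an acyl-CoA synthetase, was at -0.05 (-0.28 to 0.18). RUP1, DUS3, a tRNA-modifying enzyme, and YMR253C (5 tags each) were at -0.12, -0.15 and -0.03, and YRA1 (4 tags), an mRNA export factor, at 0.08, all with intervals that include 0. PDH1 (6 tags; chromosome XVI, 558385 to 559935), a mitochondrial enzyme of propionate use, was the exception, with 90.9 CPM in top2-1 and 41.1 in wild type (1.14, 0.92 to 1.37), and it was high in the second pair as well (0.89, 0.68 to 1.11).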

How the data were processed

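RNA was sequenced on Ion Proton machines from strand-specific libraries after rRNA removal and poly-A selection, per the labels' protocols. The authors deposited an expected count and TPM per feature for each library, made with STAR and RSEM on build R64 per the submitters' processing notes; versions, and whether strand was used in counting, are not stated there. Contacts were deposited as a count of paired-end tags per cluster, and the same notes name BWA, cutadapt, bedtools and Picard for them, and their build is not stated. Hmo1 peaks, from a strain without Top1 and with top2-1 per its title, though its genotype label names only the Hmo1 tag, carry a score given by the authors that was not used beyond the peaks' positions. Nucleosome files were not used.

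Features were matched to the RefSeq gene table of R64 by systematic name, for 6169 of 7126. Expected counts were used unrounded, since no count model was fitted. CPM was scaled with TMM factors computed over all 5 RNA libraries by edgeR 4.0.16 under R 4.3.3 (1.21 for top2-1 and 1.18 for wild type). Log2 ratios used a prior count of 2. The recovery of set log2 ratios was checked in 2 simulated libraries of Poisson counts, for features of at least 100 counts. That check does not cover the intervals, list medians, length and anchor results or features with low counts. Intervals of single ratios are exact Clopper-Pearson 95% intervals, and those of medians are order statistics over members, which describe the spread among genes and not the error of the strains. An interval of a difference of medians runs between the far ends of both intervals.

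The members and gene lists were chosen with earlier results of these data known. Named were the 12 highest and 12 lowest features by the interval bound nearest to 0, up to 3 members per list with a mean of at least 100 counts on the side of its median, the 8 longest coding genes, the 8 with the most tags joining their ends, and checks of the strains. Further members past 1.5-fold, further 2-fold coding genes, well-known list members, structural RNAs and genes with introns were chosen after their values were seen. Scaling, TPM, prior count, filter, gene class, length and anchor rules were varied.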

Additional observations from a re-analysis of the deposited data

Results flagged for a closer look

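Some features and lists lay on opposite sides of 0 in the 2 pairs of libraries, with intervals that leave out 0 in both; the difference itself was not tested. Of 31 lists there were 2. The general stress response was at 0.36 in top2-1 over wild type and -0.98 in hmo1Δ;top2-1 over hmo1Δ, and oxidative stress enzymes at 0.15 and -0.31 in the same order of pairs. The hmo1Δ library is itself high in stress RNA, at a summed level of 51504 CPM, against 25553 CPM in hmo1Δ;top2-1, 18389 CPM in top2-1 and 13226 CPM in wild type.

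Among the 24 features named as highest and lowest, 21 had at least 3 counts in all 4 libraries, and 9 of those lay on opposite sides. The 24 were picked as extremes of top2-1 over wild type, and the share of all members on opposite sides is not given here. Over all members the rank correlation of the ratios of the pairs was only 0.16. The stress genes were higher in top2-1 and lower in hmo1Δ;top2-1, each relative to its own control: SPG4 at 2.59 and -1.65, DDR2 at 1.96 and -1.25, and RGI1 at 1.67 and -0.87. HSP12 was at 1.41 and -0.92, HOR7 at 1.45 and -0.35, and HSP26 at 1.32 and -1.35. Lower in top2-1 and higher in hmo1Δ;top2-1 were YLR444C at -2.25 and 1.07, PCL1 at -1.61 and 0.65, and YKR035C at -1.30 and 0.97. YLR444C had 13.7 counts in top2-1 and 59.3 in wild type, so it passed the minimum through wild type alone. Its second ratio (0.17 to 2.35) rests on 35.6 counts in hmo1Δ;top2-1 and 10.4 in hmo1Δ. YKR035C summed with its partner DID2 was at 0.15 in top2-1 over wild type. With 1 library per strain, these differences cannot be told apart from differences between single cultures.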

How the results depend on the processing

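The 2-fold counts of 60 higher and 34 lower became 20 and 12 with a mean of at least 100 counts, 187 and 103 with no filter on low counts, and 34 and 18 among coding genes alone. The share of higher features among 2-fold calls was 63.8%, and 58.5% with TPM and 70.8% with library totals. The shortest minus the longest quintile of length was 0.24 and ranged from 0.19 to 0.25, the 0.19 among members of at least 500 bp, a setting chosen after seeing the data. Joined minus no anchor was -0.04 and ranged from -0.05 to -0.0026. The 24 features named as highest and lowest kept their direction under the scaling, TPM and prior count alternatives. They were picked as farthest from 0, so such small shifts could hardly turn them, and this is no check of them. Other named genes were not rerun, and ratios near 0 may turn sign with scaling. Of 31 lists, 25 kept the sign of their median under each scaling, TPM, prior count and filter alternative that gave one, and 6 did not: iron, mitochondrial ribosomal proteins, ribosome biogenesis, topoisomerases, cohesin and condensin, and RNA polymerases I and III. The median of all members was 0.04 with library totals and -0.03 with TPM. The snoRNA median, 0.73, was 0.53 with no filter, and that list had no value with a mean of at least 100 counts or among coding genes. The proteasome list was at 0.24 with library totals and 0.17 with TPM.

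Each strain at 37 °C gave 1 library, so no value here has an error between cultures, and counting intervals understate it. No paired analysis was possible because each group holds 1 library, and leaving out a replicate was not possible. Promoter motifs were not run, since no promoter sequences were used here. Depth limits low features most: 14 members had fewer than 20 counts in top2-1 and 52 in wild type.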

Other observations

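Genes with an intron, seen as a span on the chromosome longer than the coding length, were higher in top2-1 than genes without one when ribosomal protein genes were left out. The 164 such genes had a median log2 ratio of 0.23 (0.15 to 0.29). At least 1.5-fold higher were 19 (11.6%) and lower 2 (1.22%), beside 4.17% and 2.70% of coding members. Within quintiles of coding length, from short to long, genes with an intron had medians of 0.26, 0.22, 0.17, 0.24 and 0.07 (72, 41, 25, 12 and 14 genes), against 0.16, 0.07, -0.02, -0.07 and -0.09 for genes without one. SMD2, a core protein of spliceosomal RNPs, had 179 counts in top2-1 and 77.0 in wild type (0.94, 0.55 to 1.35). MRK1, a kinase of the GSK-3 family, had 213 counts in top2-1 and 100.0 in wild type (0.81). PCC1, of the KEOPS complex, had 153 counts in top2-1 and 72.0 in wild type (0.81). TEF4, a translation elongation factor, lay on the other side, at 629 CPM in top2-1 and 871 CPM in wild type (-0.47). The 89 ribosomal protein genes with an intron had a median of -0.05 (-0.09 to 0.01). In hmo1Δ;top2-1 over hmo1Δ the 164 genes had a median of 0.16 (0.07 to 0.20). Whether reads from introns reach these values was not tested. The grouping was chosen after its values were seen.

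Medians differed little by position on the chromosome, while ratios past 1.5-fold were more frequent near chromosome ends. Genes within 20 kb of the outermost annotated gene edge had a median of 0.0043 (137 genes), with 9.49% at least 1.5-fold higher and 8.76% lower, against 4.04% higher and 2.54% lower among genes farther in. The genes near the ends had a lower median count, 172 against 437, and its part in the difference was not tested. Chromosome medians lay between -0.03 on chromosome XIV and 0.02 on chromosome XI, except chromosome I at -0.10 (80 genes). Genes with a deposited Hmo1 peak over the first base had a median of -0.02 (1918 genes), against 0.0083 for the 3572 without, and a divergent upstream neighbour went with 0.0068 against -0.0045 for a tandem one.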
